A study of Homo sapiens with 8 samples.

Results

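PI3, SLPI, FDCSP, LCN2 and SAA1 encode 5 secreted proteins of innate defence, and their RNA was followed over 8 whole-transcript expression arrays of 2 human chordoma lines, MUG-Chor1 and U-CH1. The genes were found as probe sets whose only symbol in the platform annotation is 1 of these 5 names. Each had 1 probe set, so they are 5 of the 22395 genes with a probe set of their own. All 5 exceeded 2.57 (log2), the middle value of the whole deposited table, on at least 1 array, which placed them among the 16986 genes tested. FDCSP did so only on the TNF arrays. The set was chosen by name with the TNF differences and control levels of these arrays already known, PI3 and FDCSP being among the genes with large TNF differences. Their values and differences are therefore given as a description, without a test.

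Chordoma is a rare tumour of the spine and skull base with features of notochord cells, and each line was grown from the tumour of a single patient. The groups were U-CH1 given TNF (1 array), U-CH1 control (3 arrays), MUG-Chor1 given TNF (1 array) and MUG-Chor1 control (3 arrays). TNF was human recombinant TNF-α at 10 ng/mL, added 3 times a week for 1 week, and the controls grew without it; all cells were monolayers on gelatin in IMDM and RPMI medium with serum. The labels do not say whether a line's controls were separate cultures, so any p-value below measures only the spread between these arrays, which may be technical.

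Elafin, encoded by PI3, and SLPI are small inhibitors of neutrophil elastase that share the whey acidic protein (WAP) fold, and epithelia secrete both to shield tissue from the proteases of neutrophils. FDCSP is a small secreted peptide first described in follicular dendritic cells, LCN2 (lipocalin 2) withholds iron from bacteria by binding their siderophores, and SAA1 is an acute phase apolipoprotein made mainly in liver. TNF acts through NF-kB, and several of these genes are known in epithelial cells as targets of NF-kB together with C/EBP factors. Transcription of LCN2 is known to need the NF-kB cofactor IkB-zeta, encoded by NFKBIZ.

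The RefSeq promoter table (GRCh38.p14) held 1 of the 5 genes, LCN2. It is shown beside the promoter of TNFAIP3, which encodes the NF-kB inhibitor A20, because TNFAIP3 passed the TNF test in both lines while LCN2 lay below the mean of its controls on both TNF arrays. Both sequences are the 250 bases before the annotated start, on the plus strand, LCN2 at chr9:128149203-128149452 and TNFAIP3 at chr6:137867009-137867258. Capitals mark every match to the loose NF-kB pattern (GGG, any 5 bases, CC) on either strand.
LCN2: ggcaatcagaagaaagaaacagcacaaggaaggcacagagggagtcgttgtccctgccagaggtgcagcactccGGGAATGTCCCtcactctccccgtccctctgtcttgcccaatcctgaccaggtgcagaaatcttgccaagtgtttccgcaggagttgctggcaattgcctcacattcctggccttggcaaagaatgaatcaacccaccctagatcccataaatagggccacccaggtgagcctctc
TNFAIP3: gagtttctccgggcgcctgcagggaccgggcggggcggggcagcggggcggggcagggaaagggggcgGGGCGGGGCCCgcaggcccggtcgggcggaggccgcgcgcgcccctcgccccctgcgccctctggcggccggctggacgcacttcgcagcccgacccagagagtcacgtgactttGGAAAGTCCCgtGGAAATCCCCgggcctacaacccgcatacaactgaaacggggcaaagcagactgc
The LCN2 window held the loose pattern on both strands at overlapping places, starting 176 and 175 bases before the start, and no match to the strict pattern (GGGA, any base, TTTCC). The TNFAIP3 window held the strict pattern on the minus strand, 67 bases before the start, within a match to the loose one. The loose pattern was present in 54.4% of all 35116 promoter windows of this length and the strict one in 0.527%. The LCN2 window also held an AP-1 pattern, TGANTCA, present in 6.57% of windows, and a C/EBP pattern, TTNNGNAA, present in 33.2%, each searched on both strands. The TNFAIP3 window held a C/EBP pattern as well, 70 bases before the start, and no AP-1 pattern. Its loose NF-kB matches numbered 4, against 2 in the LCN2 window. Any link between these patterns and the TNF differences was not tested, and the 2 genes were picked by those differences. PI3 and FDCSP had no promoter here to compare.

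Median signal ranged from 2.52 to 2.63 (log2) over the 8 arrays. Genes known to answer TNF served as a check of exposure, and TNFAIP3 rose in both lines. TNFAIP3 read 8.44 in U-CH1 with TNF and 4.85 ± 0.13 in U-CH1 controls (SD, n = 3; limma adjusted p = 0.00144), and 8.03 in MUG-Chor1 with TNF and 5.20 ± 0.48 in MUG-Chor1 controls (SD, n = 3; limma adjusted p = 0.00167). NFKBIA passed in U-CH1 (log2 difference 2.00, limma adjusted p = 0.0168) and not in MUG-Chor1 (-0.15, limma adjusted p = 0.935), and ICAM1 passed in MUG-Chor1 (3.65, limma adjusted p = 0.0272) and not in U-CH1 (2.87, limma adjusted p = 0.115). The ICAM1 call in U-CH1 was gained without MUG-Chor1 control 3 and with only the U-CH1 arrays (adjusted p in limma from 0.00145 to 0.231 over the alternatives), and its MUG-Chor1 difference was 4.44 without control 3. Without TNF, NFKBIA was higher in MUG-Chor1 controls than in U-CH1 controls by 1.50 (limma adjusted p = 0.00147). ICAM1 was higher there by 2.01 (limma adjusted p = 0.0234), and by 1.22 without MUG-Chor1 control 3. TRAF1, a further check gene, had a TNF log2 difference of 2.03 in MUG-Chor1, which passed (limma adjusted p = 0.0217). In U-CH1 the TRAF1 difference was 1.81 and did not pass (limma adjusted p = 0.0604). MUG-Chor1 control 3 stood apart from controls 1 and 2 of its line in 3 of the 5 genes, and the MUG-Chor1 differences of the 5 genes are given with and without it. Each limma SE below pools the spread of both lines' controls, so this array also enters the SEs given for U-CH1.

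Of the 5 genes, FDCSP and PI3 were far higher on the TNF array of U-CH1 and less so on that of MUG-Chor1, SAA1 was higher in U-CH1, SLPI was higher in U-CH1 with TNF and in MUG-Chor1 controls than in U-CH1 controls, and LCN2 stayed within 0.86 (log2) over all 8 arrays. FDCSP and PI3 lay past the limma threshold of adjusted p under 0.05 in each line's TNF comparison, 2 of 5, where limma called 0.913% of all genes tested higher and 0.359% lower in U-CH1, and 1.47% higher and 1.41% lower in MUG-Chor1. Nothing is read from that count, since both were chosen with these differences known. In either direction the shares were 1.27% for U-CH1 and 2.88% for MUG-Chor1.

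**Figure D1:**
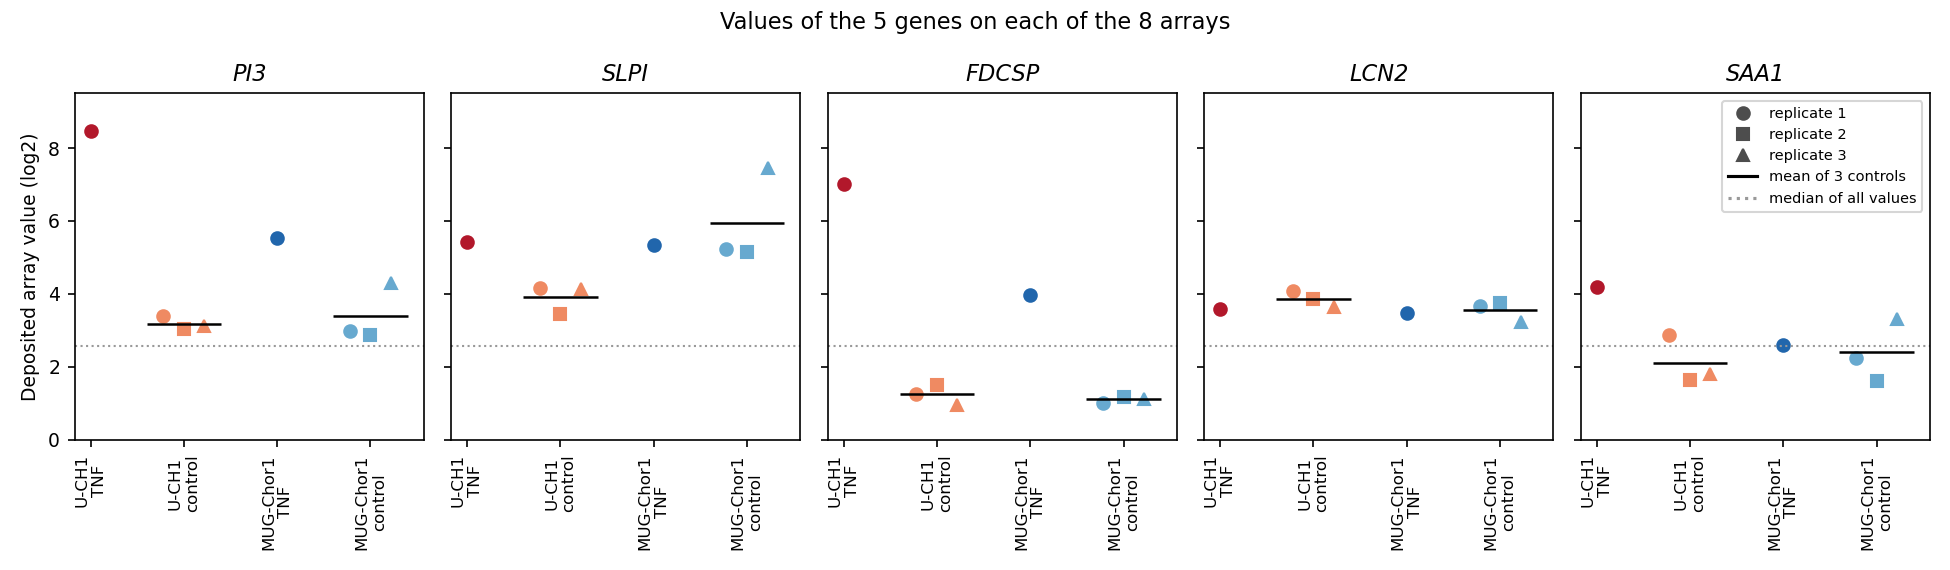
Deposited array value (log2, vertical axis) of the 5 genes on every array, by group; each point is 1 array, point shape gives the replicate number, black lines are means of 3 controls and the dotted line is the median of all deposited values. PI3 and FDCSP are highest on the U-CH1 TNF array (8.47 and 7.01), SLPI is highest on MUG-Chor1 control 3 (7.46), and LCN2 varies little.

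PI3, the elafin gene, read 8.47 (log2) in U-CH1 with TNF, against 3.40, 3.04 and 3.11 in the 3 U-CH1 controls. In MUG-Chor1 it read 5.54 with TNF, against 2.97, 2.88 and 4.31 in controls 1, 2 and 3. Both TNF arrays lay above every control of either line, and the highest control was MUG-Chor1 control 3. The log2 difference was 5.28 ± 0.48 (SE) in U-CH1, or 38.9-fold, and 2.16 ± 0.48 (SE) in MUG-Chor1, or 4.46-fold. It was the third largest rise among 16986 genes in U-CH1 and ranked 84 in MUG-Chor1. Without MUG-Chor1 control 3 the difference in that line was 2.62. The order of the groups was U-CH1 with TNF, MUG-Chor1 with TNF, MUG-Chor1 controls (3.38 ± 0.80, SD, n = 3) and U-CH1 controls (3.18 ± 0.19, SD, n = 3), and the last pair differed by less than the spread of the MUG-Chor1 controls.

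FDCSP read 7.01 in U-CH1 with TNF, against 1.26, 1.50 and 0.96 in the U-CH1 controls. In MUG-Chor1 it read 3.97 with TNF, against 1.00, 1.18 and 1.12 in the controls. All 6 controls lay below 2.57, and MUG-Chor1 control 3 did not stand apart here. The log2 difference was 5.78 ± 0.28 (SE) in U-CH1, or 54.8-fold, ranking 2 among all genes tested. In MUG-Chor1 it was 2.87 ± 0.28 (SE), or 7.31-fold, ranking 40, and 2.88 without control 3. Array values near the floor compress differences, so these folds may understate the change. The groups ran from U-CH1 with TNF through MUG-Chor1 with TNF to the controls of U-CH1 (1.24 ± 0.27, SD, n = 3) and MUG-Chor1 (1.10 ± 0.088, SD, n = 3), which differed by less than the spread of the U-CH1 controls.

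SAA1 shares nearly identical copies in its family, so its probe set may also read SAA2, and the identity of its signal is uncertain. It read 4.18 in U-CH1 with TNF, against 2.86, 1.63 and 1.81 in the U-CH1 controls, above all of them. In MUG-Chor1 it read 2.61 with TNF, against 2.25, 1.62 and 3.31 in controls 1, 2 and 3, within their range. The log2 difference was 2.08 ± 0.60 (SE), or 4.24-fold, in U-CH1 and 0.21 ± 0.60 (SE) in MUG-Chor1. Without MUG-Chor1 control 3 the MUG-Chor1 value was 0.67. Of the 6 controls, U-CH1 control 1 and MUG-Chor1 control 3 alone lay above 2.57. The MUG-Chor1 TNF array, the MUG-Chor1 controls (2.39 ± 0.85, SD, n = 3) and the U-CH1 controls (2.10 ± 0.66, SD, n = 3) differed from each other by less than the spread of the controls, and only the U-CH1 TNF array lay clear of them.

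SLPI, the other WAP inhibitor, read 5.43 in U-CH1 with TNF, against 4.16, 3.44 and 4.13 in the U-CH1 controls. In MUG-Chor1 it read 5.35 with TNF, against 5.23, 5.14 and 7.46 in controls 1, 2 and 3. The U-CH1 TNF array lay above its controls, while the MUG-Chor1 TNF array lay just above controls 1 and 2 and below control 3. The log2 difference was 1.52 ± 0.74 (SE), or 2.86-fold, in U-CH1 and -0.59 ± 0.74 (SE) in MUG-Chor1. Without MUG-Chor1 control 3 the MUG-Chor1 value changed sign to 0.17. SLPI was also the gene of the 5 that differed most between the untreated lines, with 5.94 ± 1.32 (SD, n = 3) in MUG-Chor1 controls and 3.91 ± 0.41 (SD, n = 3) in U-CH1 controls. Every MUG-Chor1 control lay above every U-CH1 control, and the log2 difference of 2.03 ± 0.52 (SE) was 1.27 without MUG-Chor1 control 3. Of the 5, 1 (SLPI) lay past the limma threshold between control lines, beside 10.3% of all genes tested called higher and 18.9% in either direction, and nothing is read from that count either. With TNF the lines stood at 5.43 in U-CH1 and 5.35 in MUG-Chor1, closer together than any MUG-Chor1 control was to any U-CH1 control.

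LCN2 read 3.58 in U-CH1 with TNF, against 4.08, 3.86 and 3.63 in the U-CH1 controls. In MUG-Chor1 it read 3.47 with TNF, against 3.66, 3.75 and 3.22 in controls 1, 2 and 3. The U-CH1 TNF array was slightly below all of its controls and the MUG-Chor1 TNF array lay among its own. The log2 differences were -0.27 ± 0.31 (SE) in U-CH1 and -0.08 ± 0.31 (SE) in MUG-Chor1, and -0.24 in MUG-Chor1 without control 3. All 8 arrays lay above 2.57. Between control lines the log2 difference was -0.31 ± 0.22 (SE), beside SDs of 0.28 in MUG-Chor1 controls and 0.22 in U-CH1 controls.

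**Figure D2:**
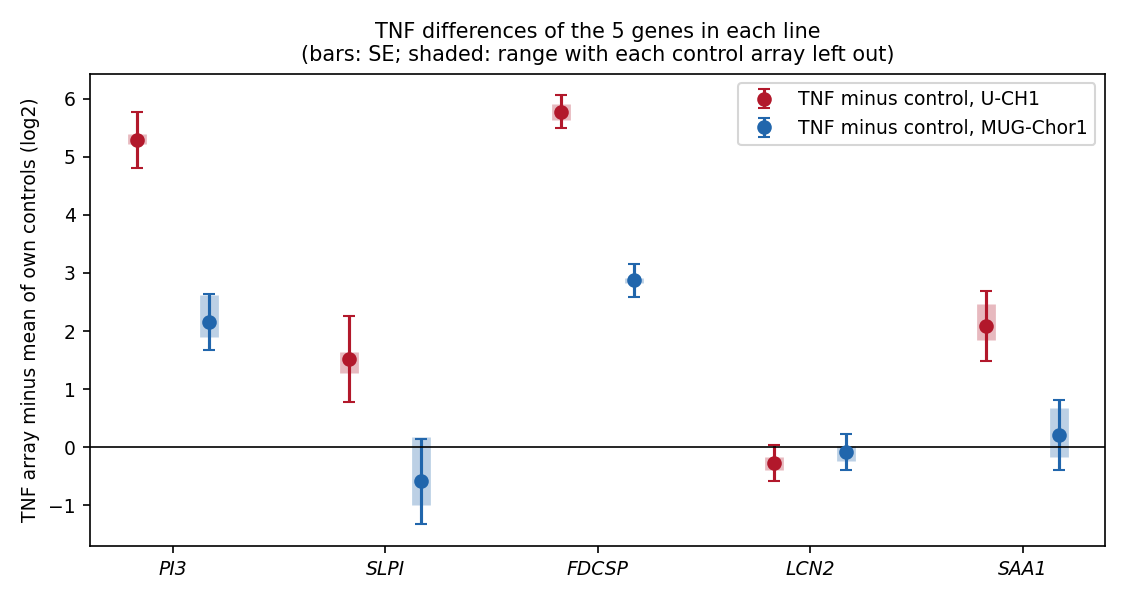
TNF array minus the mean of the same line's controls (log2, vertical axis) for the 5 genes, U-CH1 in red left of MUG-Chor1 in blue; points are the differences, bars are SE from the limma fit and shaded bands span the values with each control array left out in turn. PI3 and FDCSP lie far above 0 in both lines with U-CH1 the larger, SLPI in MUG-Chor1 spans 0 (-0.99 to 0.17), and LCN2 lies near 0.

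The TNF differences were larger in U-CH1 for 4 of the 5 genes. The U-CH1 difference minus the MUG-Chor1 difference was 3.12 ± 0.68 (SE, log2) for PI3, 2.91 ± 0.40 for FDCSP, 2.10 ± 1.04 for SLPI and 1.87 ± 0.85 for SAA1, and -0.19 ± 0.43 for LCN2. Without MUG-Chor1 control 3 these values were 2.66 for PI3, 2.89 for FDCSP, 1.35 for SLPI, 1.41 for SAA1 and -0.03 for LCN2. Of the 5, 1 (FDCSP) lay past the limma threshold here, beside 0.53% of all genes tested, and nothing is read from that count, since the genes were chosen with these values known. Of the exposure check genes, the same difference was 0.75 for TNFAIP3 (limma adjusted p = 0.906), 2.16 for NFKBIA (limma adjusted p = 0.0976) and -0.78 for ICAM1 (limma adjusted p = 1.00). Whether the lines were equally exposed was not tested.

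MUG-Chor1 control 3, an untreated array, exceeded the mean of controls 1 and 2 by 2.28 (log2) in SLPI, or 4.85-fold, the 17th largest excess among 16986 genes. The excess was 1.38 in PI3 and 1.37 in SAA1, ranking 176 and 184. FDCSP differed by 0.03 there and LCN2 by -0.48. The 3 genes that were higher on this array therefore included 2 that were higher on the U-CH1 TNF array by a larger amount, PI3 and SAA1, while FDCSP, with the largest TNF difference of the 5, was level. What set this array apart was not tested.

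Over the 8 arrays PI3 and FDCSP ran together at a Pearson r of 0.97, PI3 and SAA1 at 0.84, FDCSP and SAA1 at 0.71 and PI3 and SLPI at 0.33, while SLPI and LCN2 ran opposite at -0.83. All genes share these 8 arrays, 2 of which had TNF, and in the 6 controls alone r was -0.06 for PI3 and FDCSP, 0.88 for PI3 and SAA1, -0.17 for FDCSP and SAA1, 0.75 for PI3 and SLPI and -0.84 for SLPI and LCN2. The 6 controls include MUG-Chor1 control 3, which stood apart in PI3, SLPI and SAA1. Without that array, and with the TNF arrays kept, r was 0.99 for PI3 and FDCSP and 0.89 for PI3 and SAA1. It was then 0.86 for FDCSP and SAA1, 0.54 for PI3 and SLPI and -0.64 for SLPI and LCN2. These values describe the arrays and were not tested.

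For each gene the 3 most similar genes were sought by Pearson r over the 8 arrays among 1914 other tested genes that spanned at least 2 (log2). The nearest to PI3 were TNFRSF9, a TNF receptor family member that co-stimulates T cells (r = 0.971), the transcription factor gene NFE2L3 (0.969) and IGFN1 (0.966). TNFRSF9 read 4.65 in U-CH1 with TNF and a mean of 2.21 in U-CH1 controls, and 3.58 in MUG-Chor1 with TNF and 1.90 in MUG-Chor1 controls. The nearest to FDCSP were SQOR, a mitochondrial enzyme of sulfide oxidation (0.985), FGD6 (0.972) and IDO1, which degrades tryptophan (0.971). In the 6 controls alone r was lower, at 0.50 to 0.78 for the 3 genes nearest PI3 and -0.42 to 0.26 for those nearest FDCSP.

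The nearest to SLPI were CDCP1, a cell surface glycoprotein gene (r = 0.956), the interferon-induced antiviral gene MX1 (0.951) and the sodium-proton exchanger gene SLC9A2 (0.937). MX1 read 7.01 on MUG-Chor1 control 3, and its means were 5.44 in MUG-Chor1 with TNF and 5.79 in MUG-Chor1 controls, 4.99 in U-CH1 with TNF and 3.83 in U-CH1 controls. Without MUG-Chor1 control 3, r with SLPI was 0.916 for CDCP1, 0.873 for MX1 and 0.924 for SLC9A2. The nearest to SAA1 were EBI3, a cytokine subunit gene (0.857), ADGRG6 (0.851) and TMEM158 (0.842). The nearest to LCN2 were small RNA entries, RN5S19 (0.942), RN5S132 (0.931) and SCARNA22 (0.903).

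**Figure D3:**
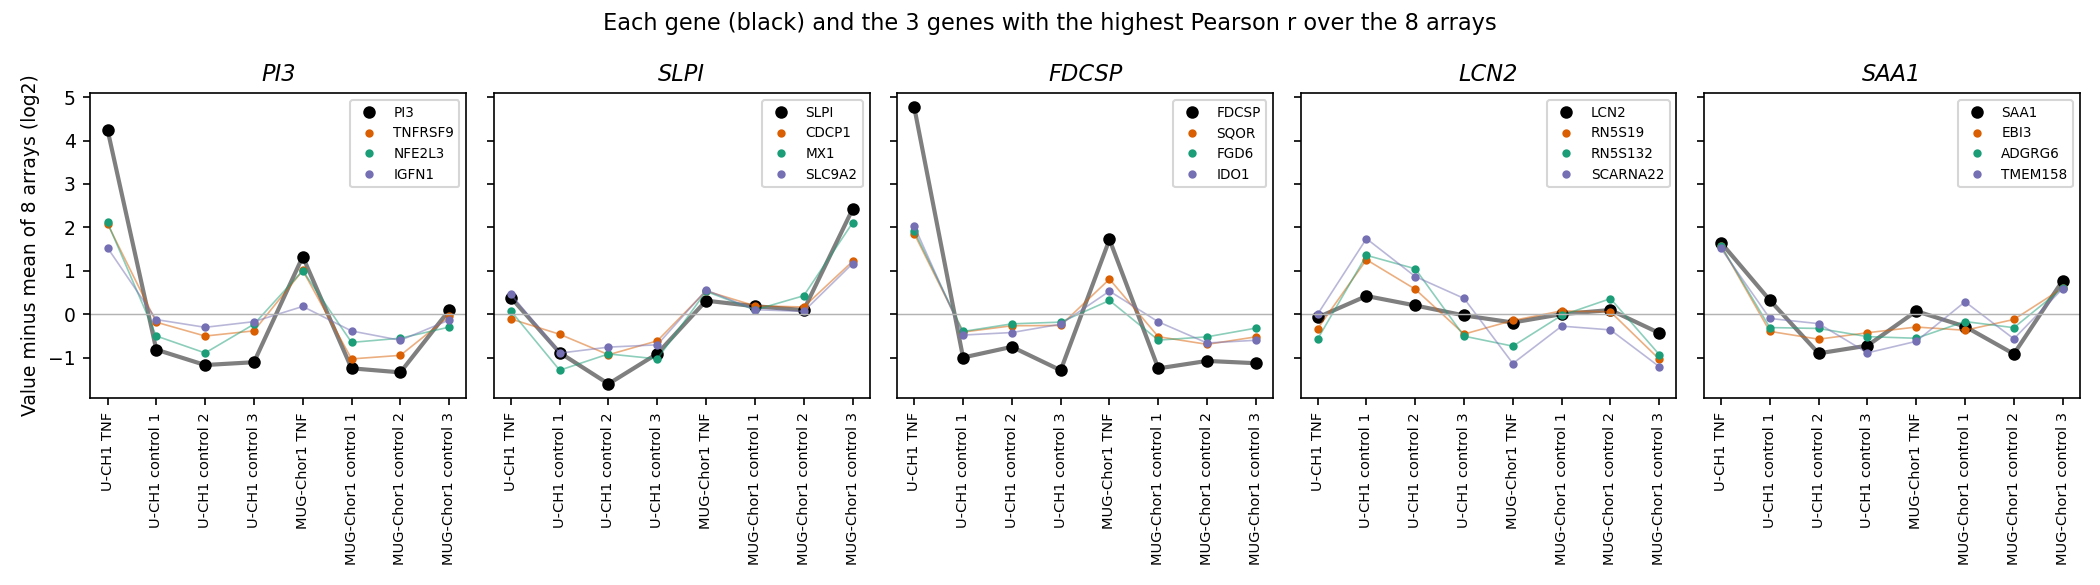
Value minus the mean of the 8 arrays (log2, vertical axis) on each array for the 5 genes (black) and the 3 genes most like each by Pearson r (colours); lines join arrays only to guide the eye. PI3, FDCSP and their nearest genes peak on the U-CH1 TNF array, SLPI, CDCP1, MX1 and SLC9A2 on MUG-Chor1 control 3, and LCN2 moves less than the small RNAs beside it.

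PI3 and SLPI lie near each other on chromosome 20 with 2 protein-coding genes, SEMG1 and SEMG2, between them in the RefSeq order (GRCh38.p14). Their 3 nearest tested protein-coding genes on each side were the same 6, a choice made after the values were seen. Of these, SDC4, which encodes the proteoglycan syndecan-4, rose by 1.87 (log2) with TNF in U-CH1 (limma adjusted p = 0.0413), and it stood at 1.24 in MUG-Chor1 (limma adjusted p = 0.135). The WAP genes among them, WFDC5 and WFDC12, stood at 1.29 (limma adjusted p = 0.0890) and 0.05 in U-CH1, and at -0.14 and 0.12 in MUG-Chor1. The 6 tested neighbours of FDCSP ran from -0.59 to 1.33 (U-CH1) and from -0.51 to 0.24 (MUG-Chor1), those of LCN2 from -0.59 to 0.37 and from -0.55 to 0.55, and those of SAA1 from -0.75 to 0.74 and from -2.20 to 0.41.

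Protease inhibitors and their targets were followed in lists of related genes, which like the 5 genes were chosen with earlier results known. Of 9 tested genes of the WAP and 20q13 inhibitor list, 0 rose in U-CH1, 1 fell and 8 did not pass in limma (4 at unadjusted p under 0.05). The one that fell was WFDC1, a WAP-domain gene, at 3.10 with TNF and 4.61 ± 0.05 in controls (SD, n = 3; log2 difference -1.51, limma adjusted p = 0.0166). In MUG-Chor1 none of the 9 passed in limma and none lay under an unadjusted p of 0.05, WFDC3 being closest at 0.49 (limma adjusted p = 0.493). The median difference of the 9 was 0.06 (U-CH1) and 0.07 (MUG-Chor1), beside 0.04 and 0.06 over all genes tested. Limma called 1.27% of all genes tested in U-CH1 and 2.88% in MUG-Chor1, in either direction.

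Of 15 other protease inhibitors, 2 rose in U-CH1, SERPINB8 by 1.64 and SERPINA1, the alpha-1-antitrypsin gene, by 1.34. Another 2 rose in MUG-Chor1, the trypsin inhibitor gene SPINK1 by 1.95 (limma adjusted p = 0.00579) and SERPINB7 by 1.64. None passed as lower in limma in either line, the lowest being SPINT2 at -0.99 in MUG-Chor1. In limma 3 of the 15 lay under an unadjusted p of 0.05 in U-CH1 and 7 in MUG-Chor1. Over all genes tested, 0.913% (U-CH1) and 1.47% (MUG-Chor1) were called higher. The median difference of the 15 was 0.07 (U-CH1) and 0.25 (MUG-Chor1). Of 13 elastase-type and kallikrein proteases and metalloproteinases, MMP9, whose protein forms a known complex with LCN2, rose by 2.75 in U-CH1 (limma adjusted p = 0.00682). It stood at 1.19 in MUG-Chor1 (limma adjusted p = 0.150), where none of the 13 passed in limma (2 at unadjusted p under 0.05). MMP9 read 5.65 in U-CH1 with TNF and 2.90 ± 0.47 in U-CH1 controls (SD, n = 3).

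Of 17 antimicrobial genes tested, 0 passed in U-CH1 in limma (1 at unadjusted p under 0.05), with S100A9, a calprotectin subunit, closest at -0.57 (limma adjusted p = 0.462). In MUG-Chor1 ADM, the gene of the vasodilator peptide adrenomedullin, rose by 2.57 (limma adjusted p = 0.00276), at 7.15 with TNF and 4.58 ± 0.43 in controls (SD, n = 3), and 16 did not pass. Over all genes tested, 1.27% (U-CH1) and 2.88% (MUG-Chor1) passed. The median difference of the 17 was -0.0045 (U-CH1) and -0.08 (MUG-Chor1).

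Of 8 acute phase genes besides SAA1, CFB, a complement factor, rose in both lines, by 2.10 in U-CH1 (limma adjusted p = 0.0309) and 2.08 in MUG-Chor1 (limma adjusted p = 0.0176). PTX3, a long pentraxin, rose by 4.95 in MUG-Chor1 (limma adjusted p = 0.00166) and stood at 0.78 in U-CH1 (limma adjusted p = 0.757). The difference of these 2 effects was -4.17 and did not pass (limma adjusted p = 0.0842), but passed without MUG-Chor1 control 3 (limma adjusted p = 0.00309). The median difference of the 8 was 0.62 (U-CH1) and 0.76 (MUG-Chor1). Shares of all genes tested called higher in limma were 0.913% (U-CH1) and 1.47% (MUG-Chor1).

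Around LCN2, 1 of 12 lipocalin genes, LCN1, which encodes tear lipocalin, fell by 1.71 in U-CH1 (limma adjusted p = 0.0144) and none passed in MUG-Chor1 in limma (1 at unadjusted p under 0.05). Of 11 LCN2 receptor and iron genes, HMOX1, which degrades haem, rose by 2.37 in U-CH1 (limma adjusted p = 0.00794) and ACO1, an iron-regulated aconitase, by 1.29 in MUG-Chor1 (limma adjusted p = 0.0452). Beside these counts, 1.27% (U-CH1) and 2.88% (MUG-Chor1) of all genes tested passed in either direction. Around FDCSP, 4 of 22 neighbours and secretory phosphoprotein genes were tested and none passed with TNF in limma (at unadjusted p under 0.05, 0 for U-CH1 and 1 for MUG-Chor1). Closest were AMTN at 1.33 in U-CH1 (limma adjusted p = 0.552) and SPP1, the osteopontin gene, at -3.09 in MUG-Chor1 (limma adjusted p = 0.0839). SPP1 passed without MUG-Chor1 control 3 (limma adjusted p = 5.68e-05).

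Receptors and regulators moved in part. For comparison, limma called 0.913% of all genes tested higher in U-CH1 and 1.47% higher in MUG-Chor1. Of 14 SAA1 receptors and adapters, the Toll-like receptor genes TLR1 and TLR2 rose in U-CH1, by 1.66 and 1.63, and none passed in MUG-Chor1 in limma (4 at unadjusted p under 0.05; TLR6 at 0.97, limma adjusted p = 0.0836). Of 17 cytokine receptors and adapters, IL22RA1, a subunit of the IL-22 receptor, rose in U-CH1 by 1.98 (limma adjusted p = 0.00917) and TLR5, the flagellin receptor gene, by 1.87. None of the 17 passed in MUG-Chor1 in limma (4 at unadjusted p under 0.05), with IRAK1 at 0.89 (limma adjusted p = 0.181). IL22RA1 read 7.24 in U-CH1 with TNF and 5.26 ± 0.04 in U-CH1 controls (SD, n = 3), and 4.59 in MUG-Chor1 with TNF and 5.23 ± 0.28 in MUG-Chor1 controls (SD, n = 3).

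Of 18 transcription factor genes linked to these promoters, NFKB2 rose by 1.58 and NFKB1 by 1.47 in U-CH1. In MUG-Chor1, NFKB2 rose by 1.28 and CEBPB by 1.36, and KLF5 fell by 1.19. NFKBIZ did not pass with TNF in either line, at 0.71 in U-CH1 (limma adjusted p = 0.551) and -0.10 in MUG-Chor1 (limma adjusted p = 0.965). Between control lines NFKBIZ was higher in MUG-Chor1, at 5.42 ± 0.51 in MUG-Chor1 controls and 3.18 ± 0.20 in U-CH1 controls (SD, n = 3 each; log2 difference 2.24, limma adjusted p = 0.000236). Of 14 transglutaminase and cornified envelope genes, TGM2, a transglutaminase, rose in both lines, by 1.50 in U-CH1 and 1.24 in MUG-Chor1, and PPL, which encodes periplakin, fell in both, by 1.72 and 1.93. TGM1 fell by 1.22 in MUG-Chor1. Among all genes tested, limma called 0.913% higher and 0.359% lower in U-CH1. The MUG-Chor1 shares were 1.47% higher and 1.41% lower.

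**Figure D4:**
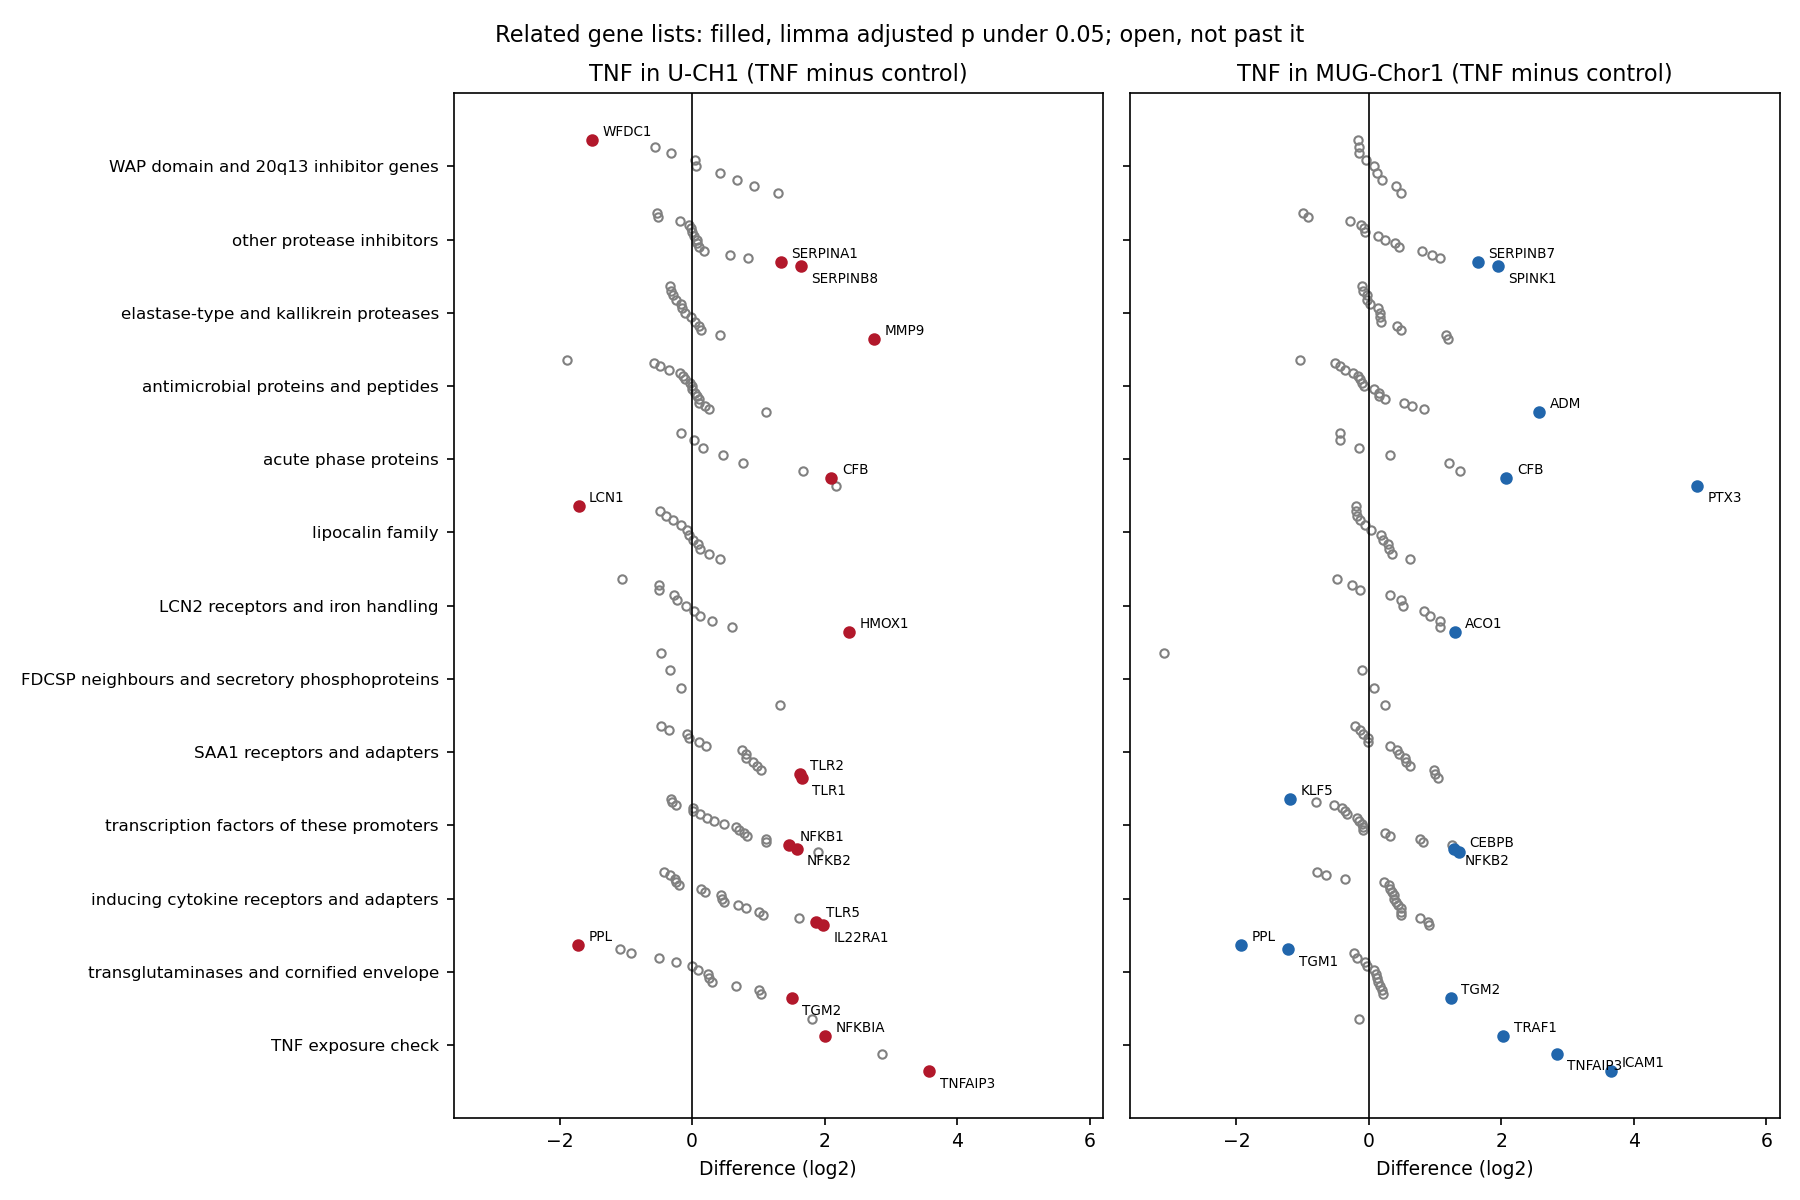
TNF minus control difference (log2, horizontal axis) of each tested gene in the lists of related genes, U-CH1 left and MUG-Chor1 right; filled named points have a limma adjusted p under 0.05 and open points do not. Most points lie near 0, with MMP9 (2.75) in U-CH1 and PTX3 (4.95) in MUG-Chor1 among the farthest to the right outside the exposure check.

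The calls in these lists were marginal in many cases. In U-CH1, leaving out a control array or using only that line's arrays ended the calls of CFB, NFKB1, NFKB2, NFKBIA, PPL, SERPINA1, SERPINB8, TGM2, TLR1, TLR2 and TLR5 (11 of 17 named calls, adjusted p in limma up to 0.0976). No change of filter, probe set choice, normalization or intensity trend ended a call there. In MUG-Chor1 such changes of the arrays used ended those of ACO1, CEBPB, CFB, DCN, DPP4, ICAM1, KLF5, NFKB2, SERPINB7, TGM1, TGM2 and TRAF1 (12 of 24, adjusted p in limma up to 0.146). There quantile normalization also ended the calls of ACO1, DPP4, NFKB2 and TGM2, and an intensity trend that of TGM1.

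Between the untreated lines the related genes differed more often, as genes did generally. Of 15 other protease inhibitors, 5 were higher in MUG-Chor1 controls and 3 lower, against 10.3% and 8.57% of all genes tested. SPINT2, an inhibitor of hepsin-type proteases, led at 6.61 ± 0.13 in MUG-Chor1 controls and 2.43 ± 0.24 in U-CH1 controls (SD, n = 3 each; log2 difference 4.17, limma adjusted p = 7.54e-07). The difference was 1.56 for SPINT1, -1.59 for SERPINB7, -1.46 for SPINK6, -1.70 for WFDC1 and -2.15 for LCN1. Of 17 antimicrobial genes 2 chemokine genes passed, CCL28 at 2.25 and CXCL14 at -3.08, and of 8 acute phase genes C3 passed at 3.44 and SERPINA3 at -1.40. Without MUG-Chor1 control 3 the difference was 2.28 for C3 and -4.49 for CXCL14. C3 stood at 4.04 without MUG-Chor1 control 2, and CXCL14 at -2.37 without either of the other two. Among receptors and adapters CD36 stood at 2.06, SCARB1 at -1.35, IL1R1, the IL-1 receptor gene, at -1.76 and TRAF6 at 1.57, and of the transglutaminases TGM5 stood at -2.12. At least 1 alternative ended 15 of the 40 named calls between control lines, CXCL14 among them (adjusted p in limma up to 0.167).

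Markers of cells known to secrete these proteins were in part low and in part well above 2.57. Of 9 neutrophil markers, CEACAM8, FCGR3B, CSF3R, CXCR2 and CXCR1 lay at or below 2.57 on all 8 arrays, and none of the 4 tested passed with TNF in limma (1 at unadjusted p under 0.05 in each line). The list summed on a linear scale to 45.4 in U-CH1 with TNF, against 53.9 to 76.9 in its controls, and to 43.8 in MUG-Chor1 with TNF, against 36.6 to 41.5 in its controls. Mean log2 values of the neutrophil list were 2.16 in U-CH1 with TNF (2.22 to 2.42 in controls) and 2.15 in MUG-Chor1 with TNF (1.92 to 2.05 in controls). Of 7 follicular dendritic cell markers CR2, CR1 and CXCL13 lay at or below 2.57 on all arrays, as did PTPRC, CD3D, CD3E and MS4A1 of 11 other leukocyte markers, KRT5, KRT1, KRT10 and DSG3 of 6 keratinocyte markers and APOB, FGA, FGB and SERPINC1 of 8 hepatocyte markers. None of the 4, 7, 2 and 4 tested genes of these lists passed with TNF in limma in either line (at unadjusted p under 0.05, 1, 3, 0 and 0 in U-CH1 and 2, 2, 0 and 0 in MUG-Chor1). Others of these lists were bright. CD68, a macrophage marker, read 8.48 in U-CH1 with TNF and 7.80 ± 0.22 in its controls, and 9.17 in MUG-Chor1 with TNF and 8.17 ± 0.13 in its controls (SD, n = 3 each; limma adjusted p = 0.383 and 0.102). Of the follicular dendritic cell list SERPINE2 read 7.59 to 8.65 and CLU 5.09 to 6.58 over the 8 arrays. OLFM4 of the neutrophil list averaged 4.28 in U-CH1 controls and read 2.73 in U-CH1 with TNF (limma adjusted p = 0.239). A linear sum is led by its brightest gene, here CD68 in the other leukocyte list and SERPINE2 in the follicular dendritic cell list. The other leukocyte list summed to 432.8 in U-CH1 with TNF, against 268 to 332 in its controls, and to 640.1 in MUG-Chor1 with TNF, against 328 to 371 in its controls. Its mean log2 value was 3.15 in U-CH1 with TNF (2.93 to 2.97 in controls) and 3.00 in MUG-Chor1 with TNF (2.93 to 2.96 in controls). The median difference of its 7 tested genes was 0.31 (U-CH1) and -0.02 (MUG-Chor1). The follicular dendritic cell list summed to 376 in U-CH1 with TNF, against 357 to 491 in its controls, and to 457 in MUG-Chor1 with TNF, against 259 to 372 in its controls. Its mean log2 value was 3.34 in U-CH1 with TNF (3.50 to 3.81 in controls) and 3.31 in MUG-Chor1 with TNF, within the 3.24 to 3.39 of its controls. The keratinocyte and hepatocyte lists stayed between 21.4 and 47.2 on all arrays. The part of these levels in the values of the 5 genes was not tested.

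With TNF in MUG-Chor1, limma called 1.41% of all genes tested lower and 1.47% higher, the shares beside which the counts below stand. All 10 chordoma markers, among them TBXT, the notochord gene brachyury, exceeded 2.57 on at least 1 array. Of the 10, 6 fell and none rose with TNF in MUG-Chor1, with ACAN at -4.09, KRT19 at -3.08, CD24 at -2.99 and COL2A1 at -2.82, and 0 passed in U-CH1 in limma (3 at unadjusted p under 0.05; KRT19 at -1.03, limma adjusted p = 0.0901, and 0.0183 with an intensity trend). Their linear levels summed to 599.7 in MUG-Chor1 with TNF, against 3560 to 3761 in its controls, and to 2614 in U-CH1 with TNF, against 3878 to 4811 in its controls. Of 8 fibroblast markers, 4 rose in MUG-Chor1 (FAP by 3.74, LUM by 3.65, DPP4 by 1.89 and DCN by 1.60). There the list summed to 2006 with TNF, against 168 to 374 in controls, a sum led by LUM at 10.65 with TNF. The mean log2 value of the list was 5.17 with TNF and 3.59 to 4.33 in controls. None passed in U-CH1 in limma (0 at unadjusted p under 0.05), where the sum was 859 with TNF, against 617 to 947 in controls. Of 5 endothelial markers KDR fell by 2.37 in MUG-Chor1 and the other 4 did not pass in limma. There the list summed to 50.4 with TNF, against 121 to 213 in controls. That control sum was led by KDR, which averaged 7.07 in MUG-Chor1 controls and read 4.71 with TNF. The mean log2 value of the endothelial list in MUG-Chor1 was 2.60 with TNF and 3.07 to 3.31 in controls. The part of these marker changes in the MUG-Chor1 values of the 5 genes was not tested.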

How the data were processed

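Each of the 8 arrays measured RNA of 1 sample, and the authors deposited log2 values of 53617 probe sets, made with RMA and Transcriptome Analysis Console, per the submitters' processing notes. No label or header names the log base, and log2 was taken from the use of RMA and the range of 0.065 to 12.7. RMA usually equalises array distributions, which would hide a change shared by all genes, and the arrays were not normalized again. Build and software versions behind the annotation are not stated in the labels. Any batch coinciding with a TNF array cannot be separated from TNF, and precision is set by how few arrays there are.

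Of the probe sets, 23871 had 1 symbol in the platform annotation, which was updated through Entrez identifiers for 90. The brightest probe set on average stood for each of 22395 genes, and 16986 above the overall median of 2.57 on at least 1 array were tested with limma 3.58.1 in R 4.3.3 (4 group means, eBayes, two-sided, Benjamini-Hochberg over all genes tested, adjusted p under 0.05). Since each line has a single TNF array, its spread was taken to equal that of the controls. The 5 genes and all lists were chosen with earlier results of these data known.

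The text names the 5 genes, TNFAIP3, NFKBIA and ICAM1, up to 4 called genes a list and comparison by size (otherwise the smallest p), and the 3 genes most like each of the 5. NFKBIZ under TNF, PTX3 and TRAF1 in U-CH1, SPINT2 under TNF and the chromosomal neighbours were added after their values were seen. List genes without a probe set of 1 symbol were not analysed here. Protein sequences were not used here.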

Additional observations from a re-analysis of the deposited data

Results flagged for a closer look

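The TNF difference of 9 genes from the lists differed between the lines by the limma test of that difference (U-CH1 minus MUG-Chor1, log2; 0.53% of all genes tested were called). Higher in U-CH1 were ACAN at 3.31 (-0.78 in U-CH1 and -4.09 in MUG-Chor1, limma adjusted p = 0.0211), TLR5 at 2.66 (1.87 and -0.79, limma adjusted p = 0.0329), IL22RA1 at 2.63 (1.98 and -0.65, limma adjusted p = 0.0227), CD24 at 2.47 (-0.53 and -2.99, limma adjusted p = 0.0238) and KRT19 at 2.05 (-1.03 and -3.08, limma adjusted p = 0.0364). Lower in U-CH1 were FAP at -3.95 (-0.21 in U-CH1 and 3.74 in MUG-Chor1, limma adjusted p = 0.00336), ADM at -2.91 (-0.35 and 2.57, limma adjusted p = 0.0329), ACO1 at -2.34 (-1.05 and 1.29, limma adjusted p = 0.0434) and LCN1 at -2.33 (-1.71 and 0.61, limma adjusted p = 0.0322). Leaving out at least 1 of the control arrays in turn ended each of these calls except that of FAP (limma adjusted p up to 0.102). No change of filter, probe set choice, normalization or intensity trend ended any of them where the gene was tested. FAP was tested under 10 alternatives and each of the other genes under 11, so the FAP call was not checked under every alternative. The groups of 3 controls and 1 TNF array are too small for a search for outlying arrays.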

How the results depend on the processing

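Quantile normalization moved the log2 differences of PI3, SLPI, FDCSP, LCN2 and SAA1 by at most 0.0885 over the 4 comparisons, and averaging probe sets could not move them, since each has 1. With each control left out, SLPI in MUG-Chor1 ran from -0.99 to 0.17, SAA1 from -0.18 to 0.67, LCN2 from -0.24 to 0.02 and PI3 from 1.90 to 2.62; between control lines PI3 ran from -0.26 to 0.45 and SAA1 from -0.17 to 0.68. The number of genes called depended more on the arrays. With each control left out, 104 to 329 genes were called with TNF in U-CH1 (216 with all arrays), 284 to 664 in MUG-Chor1 (489), 38 to 152 for U-CH1 minus MUG-Chor1 (90) and 2123 to 3090 between control lines (3209); the highest count of each of the first 3 came without MUG-Chor1 control 3. Only the 4 MUG-Chor1 arrays gave 296 genes in that line. No label says that a control number pairs the lines. Deviations of same-numbered controls correlated at 0.04, -0.06 and 0.16, and 1 of the 3 numbers correlated best with itself. With 3 controls a line these values cannot settle whether the numbers pair the lines. A replicate block over the 6 controls gave 3248 genes between control lines. Named list genes kept their side of the threshold and sign in 1418 comparisons with an alternative, lost the call in 184, gained it in 6 and turned in 1, KRT16 between control lines, which ran from -0.41 to 0.0102 with each control left out, the highest without MUG-Chor1 control 3; the cause was not tested. Array signal near the floor limits FDCSP and SAA1 in the controls.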
